A study of Bos taurus with 12 samples.

Results

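Gene bodies were examined through 855 of the 7290 tiles of 500 bp for which a comparison of sperm DNA methylation between low BFI and high BFI bulls was deposited. A tile was taken when the deposited table placed it within an intron, exon, coding sequence, 5′ UTR or 3′ UTR on an autosome. Of 1211 gene body tiles, 64 on chromosome X were left out, as were 292 in 5 chromosome regions where listed tiles lie close together. The set held 421 intron tiles in 152 genes and 434 exonic tiles in 211 genes, with 57 genes in both classes and 306 genes in all. The exonic class was made up of 219 coding sequence tiles, 110 5′ UTR tiles, 79 exon tiles and 26 3′ UTR tiles.

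Enzymatic methylation sequencing (EM-seq) was applied to genomic DNA of sperm from male Bos taurus, with 6 samples named low BFI and 6 named high BFI. The labels do not spell out BFI, give no breed, age or treatment, and do not say whether each sample is a different bull. The deposited values are the authors' comparison of the groups, so no sample has a value of its own, the depth is unknown, and the spread between samples could not be computed. The order of subtraction is stated in no header or label, so signs are given as deposited and no group is called the more methylated.

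In mammalian sperm most CpG sites are methylated, and the main exceptions are CpG islands, many of which cover promoters and first exons. Introns are transcribed and then spliced out, and besides most of the length of a gene they hold repeats and regulatory elements that act at a distance. Coding sequence and untranslated regions remain in the mature RNA, and the 5′ UTR lies next to the promoter.

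Whether a tile counted as intronic or exonic was decided by a single base. In all 855 tiles the first base lay in the named feature, and 126 intron tiles and 237 exonic tiles had fewer than 250 bp on it. Intron tiles had a median of 500 bp on their intron, exonic tiles 213.5 bp on their feature. Introns with a tile had a median length of 4387 bp, exonic features 473 bp. Since tiles start every 100 bp, 743 of the 855 shared bases with another tile of the set, and they are not independent measurements. Tiles of the same class at most 1000 bp apart were joined, which gave 160 separate stretches in introns and 218 in exonic features, single tiles included.

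Intron tiles carried larger differences than exonic tiles. The median size of the difference, whatever its sign, was 0.867 percentage points over intron tiles (quartiles 0.375 and 2.32) and 0.488 over exonic tiles (quartiles 0.248 and 1.03). A difference of at least 2 percentage points was found in 128 intron tiles (30.4%) and 62 exonic tiles (14.3%). Intron values in the authors' deposited table ran from -12.4 to 5.12 percentage points, and exonic values from -7.95 to 7.15. Signs were mixed in both classes, with 56.5% of intron tiles and 51.2% of exonic tiles negative. No test was made of these gaps between the classes, because overlapping tiles of a single comparison are not replicates.

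A tile was called differentially methylated at a deposited q under 0.05 together with a difference of at least 10 percentage points. This was met by 4 intron tiles, all negative, and 0 exonic tiles, against 2.78% of all listed tiles and 0.915% of the 4810 listed tiles on autosomes outside the 5 regions (0.894% when only negative tiles are counted). At a lower bar of 5 percentage points with the same q, 47 intron tiles (11.2%) and 16 exonic tiles (3.69%) passed. The background at that bar was 15.4% of all listed tiles and 9.65% of the autosomal ones. Intron tiles thus lay close to the autosomal background and exonic tiles below it. Of the 47 intron tiles 46 were negative, and of the 16 exonic tiles 12 were, while in the autosomal background 8.46% of tiles passed with a negative and 1.19% with a positive difference. The deposited q alone passed 0.05 in 272 intron tiles (64.6%) and 255 exonic tiles (58.8%), against 71.8% of all listed tiles and 67.4% of the autosomal ones, where 48.1% passed with a negative and 19.3% with a positive sign. By sign, 164 intron tiles passed as negative and 108 as positive, and 142 and 113 exonic tiles. Small differences made up much of that count, since 89 of the 272 intron tiles and 147 of the 255 exonic tiles were under 1 percentage point. In 61 tiles of the set (24 intronic and 37 exonic) the q was under 0.05 while the p-value was not. The p-value at which q passed 0.05 differed by chromosome, so each count by q pools unlike bars.

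Other position classes on the same chromosomes gave a scale for these values. Listed tiles in distal intergenic DNA had a median size of 2.11 percentage points, those classed as downstream 0.938, those classed as promoter 0.766 and those within CpG islands 0.469. The intron median therefore fell between the promoter and downstream classes, and the exonic median lay next to that of CpG islands.

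**Figure D1:**
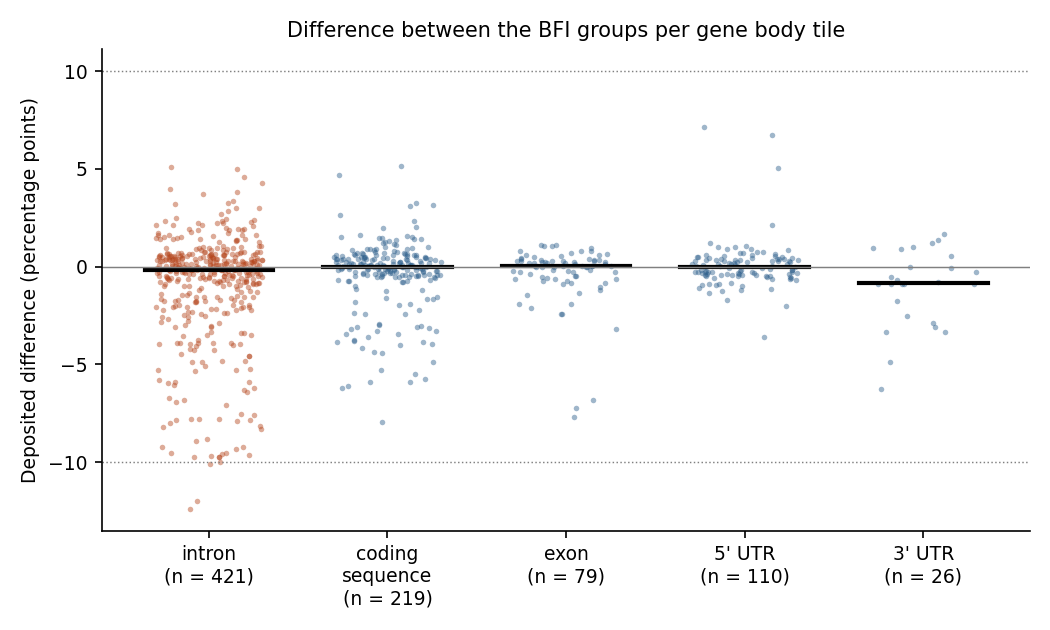
Deposited methylation difference (percentage points, vertical axis) of each of the 855 tiles by the annotated type of the feature that holds its first base; points are tiles spread sideways, black bars are medians, and dotted lines mark 10 percentage points. Intron tiles reach -12.4, while the medians of all types but the 3′ UTR lie near 0.

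Intron tiles of at least 5 percentage points lay mostly in long introns. In introns of at least 10000 bp, 38 of 154 tiles had q under 0.05 and at least 5 percentage points, all of them negative, and 75.3% of all tiles there were negative. In shorter introns 9 of 267 tiles passed and 45.7% were negative. Over all autosomal tiles outside the 5 regions 65.6% were negative, and over distal intergenic tiles 78.6% were negative and 14.96% passed, 211 of those 220 with a negative sign. The share of negative tiles in long introns was therefore not above that of intergenic DNA. The median size did not rise evenly with intron length. It was 1.06 percentage points in introns under 500 bp, 0.578 from 500 to under 2000 bp, 0.825 from 2000 to under 10000 bp, 0.968 from 10000 to under 50000 bp and 2.08 at 50000 bp or more. With 1 median per gene, the median over genes was 0.770 for long introns and 0.624 for shorter ones. The signed median was 0.247 in introns under 500 bp, -0.704 from 10000 to under 50000 bp and -2.08 at 50000 bp or more. The -0.704 rested on single genes, at -0.326 without SEPTIN10 and -1.05 without ENSBTAG00000023169. The long introns belonged to 45 genes, of which 31 had a negative median. Leaving out any 1 of these genes kept the share of long-intron tiles that passed between 18.9% and 26.8%, and the median size between 1.30 and 1.67 percentage points.

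Tiles were also grouped by position inside the intron. Tiles that ran over an intron edge had a median size of 0.618 percentage points (170 tiles, 84 genes), and those inside the intron but under 500 bp from an edge 0.816 (105 tiles, 54 genes). Tiles at least 10000 bp from both edges had a median of -3.57 percentage points, and 15 of 37 passed q and 5 percentage points. These 15 came from 4 genes. Of all autosomal tiles outside the 5 regions 9.65% passed, and of the distal intergenic ones 14.96%, with a median of -1.77 percentage points. Between the edge and the deep tiles the rise in size was not even. Median sizes were 2.22 from 500 to under 2000 bp and 0.902 from 2000 to under 10000 bp. The 37 deep tiles came from 9 genes, 7 of them with a negative median. Without PEX5L, a relative of the peroxisomal import receptor that holds 10 of these tiles, the median size was 6.32 percentage points. Without any other of the 9 genes it was at least 3.07. In PEX5L the 10 tiles lay on chromosome 1 from 87257301 to 87258700, at -3.57 to -1.96 percentage points in the authors' deposited table. SMYD3, which encodes a SET domain methyltransferase, had 3 deep tiles in the longest intron of the set (379356 bp), at -3.06, -3.08 and -3.48 percentage points in the authors' deposited table. The deep tiles with positive medians were in CNIH3, an auxiliary protein of AMPA receptors, and ZNF831, a zinc finger gene, with medians of 0.461 and 0.963.

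**Figure D2:**
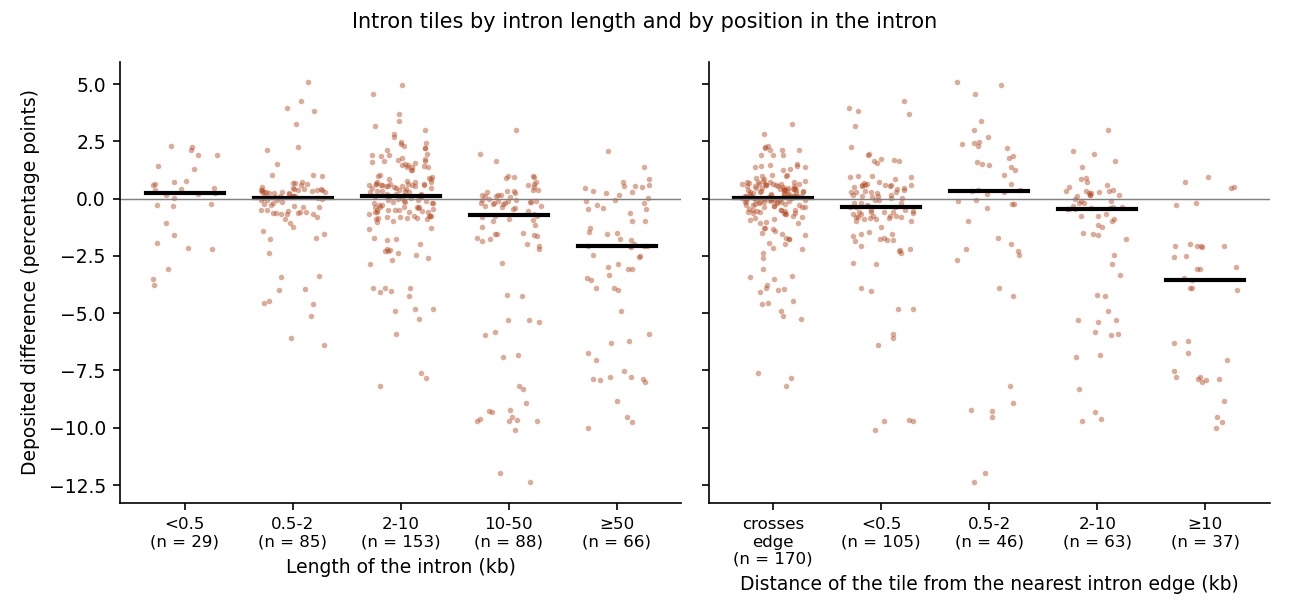
Deposited difference (percentage points, vertical axis) of the 421 intron tiles by length of the intron in kb (left) and by distance of the tile from the nearest intron edge in kb (right); points are tiles and black bars medians. The medians fall to -2.08 in introns of at least 50000 bp and to -3.57 at least 10000 bp from an edge.

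All the intron tiles that passed q and 5 percentage points in described genes outside multicopy families lay in long introns. These were 33 tiles in 8 genes, SEPTIN10, CA10, SPATA1, HRH2, OTUD7A, SORCS3, GNAQ and CSMD3, in introns of 13135 to 133995 bp. Each of the 33 was negative and none overlapped a CpG island listed in the table. In the same kind of gene, 33 of 138 tiles in introns of at least 10000 bp passed and 0 of 165 in shorter introns, where the largest size was 4.97 percentage points. Over all autosomal tiles outside the 5 regions, whatever their gene, 9.65% passed. This split by intron length and gene naming was chosen after the values had been seen.

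SEPTIN10 encodes a septin, one of the filament-forming GTP-binding proteins of the cytoskeleton, which in sperm also build the annulus of the tail. Its 11 tiles made a single stretch on chromosome 11 from 44298601 to 44300100 (ARS-UCD1.2), inside an intron that runs from 44298402 to 44311536 on the plus strand. The stretch began 199 bp from the 5′ edge of the intron. In the authors' deposited table the 11 values had a minimum of -12.4, a median of -9.65 and a maximum of -8.18 percentage points. Only 3 of them reached 10 percentage points, at -10.1, -11.97 and -12.4, and the other tiles were as close as -9.72. The 3 called tiles thus lay in 1 stretch of negative values.

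CA10 encodes a carbonic anhydrase-related protein without enzyme activity that is made mainly in brain. Its 4 tiles lay on chromosome 19 from 1356301 to 1357100 in an intron of 133995 bp on the minus strand, at least 60955 bp from either edge. The authors' deposited table gave them -10.02, -8.84, -9.73 and -9.51 percentage points, with q between 3.57e-28 and 2.60e-21. Only the first passed 10 percentage points, and the other 3 fell short by less than 1.2 points.

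SPATA1, a gene named for its link to spermatogenesis, had 4 tiles on chromosome 3 from 59558301 to 59559100, in an intron of 14215 bp and at least 6391 bp from its edges. They had -9.69, -9.31, -6.93 and -6.82 percentage points in the authors' deposited table, so that the values fell into a larger and a smaller pair along 800 bp. HRH2 encodes the histamine H2 receptor, which drives gastric acid secretion. Its 2 tiles, on chromosome 10 from 5462201 to 5462800 in an intron of 20547 bp, were given as -9.61 and -8.29 percentage points, with q of 9.06e-42 and 5.22e-45, in the authors' deposited table. Between 9 and 10 percentage points, just under the bar, lay 11 intron tiles from 4 genes and 0 exonic tiles.

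OTUD7A encodes a deubiquitinase, an enzyme that removes ubiquitin from proteins. Its 5 tiles on chromosome 21 from 30089901 to 30090800 had -7.52, -6.74, -7.92, -7.86 and -7.87 percentage points in the authors' deposited table. SORCS3, a sorting receptor of the VPS10 domain family, had -8.02, -7.06 and -6.32 percentage points in the authors' deposited table, on chromosome 26 from 25967301 to 25968000. GNAQ encodes the G protein subunit that couples receptors to phospholipase C. On chromosome 8 from 53905501 to 53906200 it had -6.21, -7.79 and -7.79 percentage points in the authors' deposited table, the last 2 tiles with identical values. Identical values in a tile and the one just before it occurred 8 times in the set.

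All tiles of these 7 genes were negative, while the stretch in CSMD3 changed sign. CSMD3 encodes a large membrane protein with CUB and sushi domains. Its 10 tiles covered chromosome 14 from 52066501 to 52067900, in an intron of 96414 bp. In the authors' deposited table the first 5 were -2.44, -3.32, -5.92, -4.90 and -2.87 percentage points. The middle 2, -0.45 and -0.39, had q of 0.0640 and 0.0697. The last 3, in the authors' deposited table, were 0.865, 1.37 and 2.06 percentage points, the first of them with q = 0.0191 but p = 0.113. The most negative and most positive tiles of this intron began 700 bp apart.

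**Figure D3:**
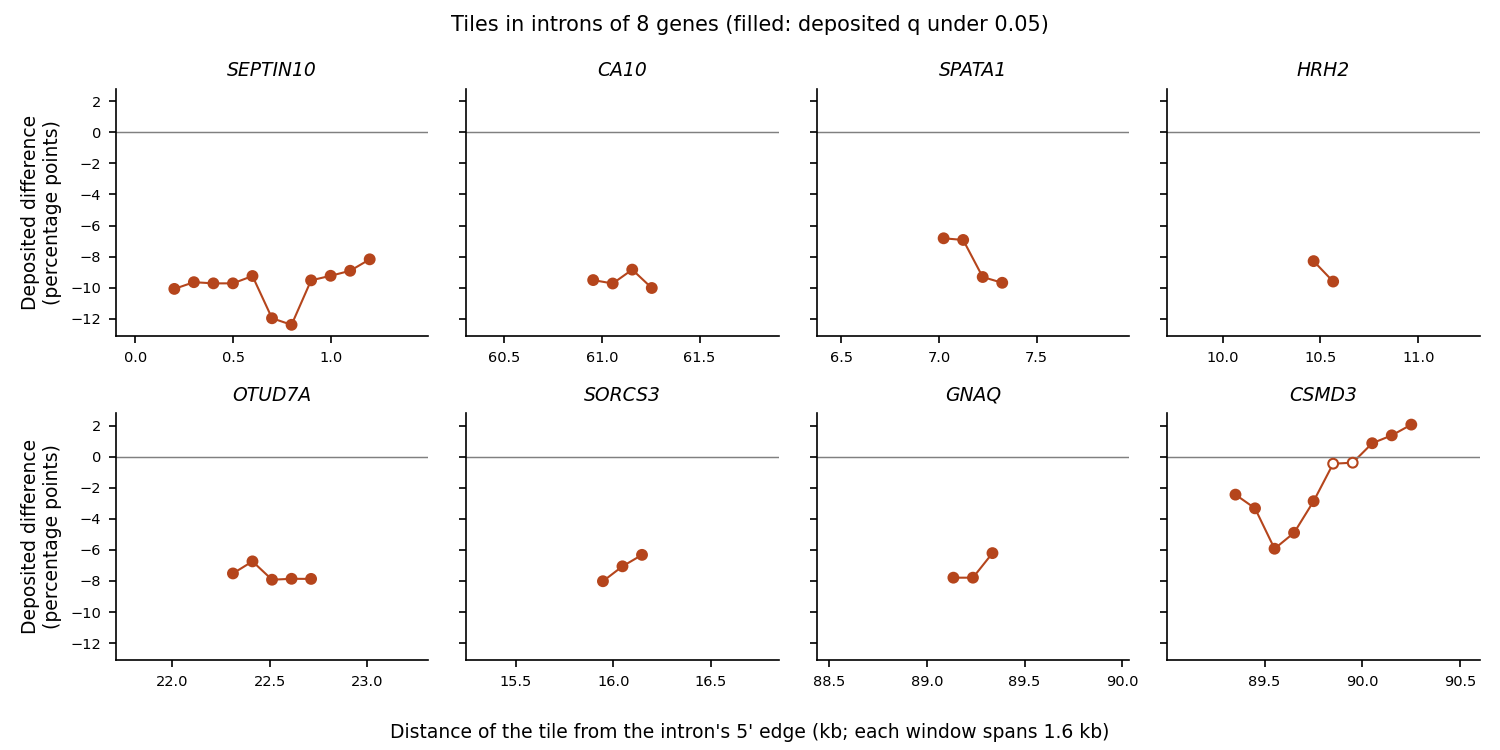
Deposited difference (percentage points, vertical axis) of the intron tiles of SEPTIN10, CA10, SPATA1, HRH2, OTUD7A, SORCS3, GNAQ and CSMD3, against the distance from the 5′ edge of the intron in kb; each point is a tile, filled where the deposited q is under 0.05. All tiles are negative in 7 genes, and CSMD3 runs from -5.92 to 2.06.

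Positive differences in introns were smaller. The only intron tile above 5 percentage points was in ENSBTAG00000053682, a gene without description on chromosome 4, whose 4 tiles had 3.98, 3.82, 4.28 and 5.12 percentage points in the authors' deposited table. Among described genes IKZF1, a zinc finger transcription factor of lymphocyte development, was highest. Its 4 tiles on chromosome 4 from 5528801 to 5529600 had 4.97, 2.98, 3.38 and 3.70 percentage points in the authors' deposited table, in an intron of 5761 bp. TOX3, an HMG-box gene, had a single intron tile, listed with 2.996 percentage points and q = 0.0401 by the authors' deposited table. In ABCF3, an ATP-binding cassette protein of the F subfamily, 3 tiles at 2.31, 2.26 and 1.92 percentage points in the authors' deposited table had only 211, 111 and 11 bp on an intron of 234 bp. By genes, 101 of 152 had an intron tile with q under 0.05, which was negative in 56 and positive in 45 when the tile of largest size was read.

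Coding sequence, exon and 5′ UTR tiles had similar median sizes, and 3′ UTR tiles a larger one. The median size was 0.510 percentage points over coding sequence tiles, 0.451 over exon tiles and 0.410 over 5′ UTR tiles. The 26 3′ UTR tiles had 0.920, but 18 of them came from FBXO16, and the 8 tiles of the other 6 genes had 0.887. Tiles of at least 2 percentage points made up 5.45% of 5′ UTR tiles, 8.86% of exon tiles, 19.2% of coding sequence tiles and 26.9% of 3′ UTR tiles. Negative tiles made up 73.1% of 3′ UTR tiles and between 46.8% and 50.9% in the other exonic types. In 140 of 211 genes an exonic tile had q under 0.05, negative in 72 and positive in 68.

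Only 2 exonic tiles in described genes outside multicopy families passed q and 5 percentage points, and they had opposite signs. PEG10, an imprinted retrotransposon-derived gene expressed from the paternal allele, had 2 tiles on chromosome 4 from 12071901 to 12072500, both in the 3′ UTR. They were -4.88 and -6.28 percentage points in the authors' deposited table. CNR1 encodes the cannabinoid receptor CB1. Its single tile, in coding sequence on chromosome 9 from 61768901 to 61769400, had 5.13 percentage points with q = 4.38e-08 in the authors' deposited table. The other 14 tiles were in genes without description, genes of multicopy families, or an exon of a transcript without a gene. The largest positive exonic values of the set were of this kind, in the 5′ UTR of GAT, a glycine-N-acyltransferase-like gene on chromosome 15. Its 3 tiles had 6.73, 7.15 and 5.03 percentage points in the authors' deposited table, and reads could be shared with related copies.

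Smaller positive exonic differences were found in several described genes not counted as multicopy. ABCB4, the phospholipid transporter of bile, had a coding sequence tile at 3.17 percentage points per the authors' deposited table, with only 30 bp on its exon. SPATA6L, a relative of a gene needed for the sperm head-tail junction, had a 5′ UTR tile at 2.11 percentage points with q = 2.22e-13 in the authors' deposited table. SPHKAP, an anchor of protein kinase A, had 2 tiles in a coding exon of 3772 bp, at 1.28 and 2.04 percentage points in the authors' deposited table. At the other end NEFM, a neurofilament gene and one of the 5 genes with the most exonic tiles, had 8 coding tiles between -0.09 and 0.415 percentage points in the authors' deposited table. Only 1 of the 8 had q under 0.05.

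FBXO16 encodes an F-box protein, the part of a ubiquitin ligase that binds the substrate, and had the most exonic tiles. Along its 3′ UTR on chromosome 8 from 10293330 to 10296282, the first 6 tiles were positive, from 0.527 to 1.34 percentage points in the authors' deposited table. The next 6 were negative, from -1.74 to -3.36, and the last 6 lay between -0.912 and -0.266 in the authors' deposited table, all with q above 0.05. Its 4 intron tiles, upstream of the 3′ UTR, were -0.239, -1.70, -2.81 and -2.08 percentage points in the authors' deposited table. Sign thus changed within this UTR as it did within the CSMD3 intron.

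In the 57 genes with tiles of both classes, introns and exonic features had much the same values. Their medians had the same sign in 46 genes and differed by less than 1 percentage point in 49, with a median gap of 0.312. The intron median was the larger in size in 19 of the 57. Tile medians of the size were 0.596 percentage points over the 153 intron tiles and 0.702 over the 145 exonic tiles of these genes. With 1 median size per gene and class, the order was the other way, with medians over genes of 0.577 for introns and 0.511 for exonic features. Inside these genes the gap between the classes was therefore small. Exonic features had the larger values by the count of genes and by tiles, and introns by the medians over genes. Tiles of both classes often overlapped: 107 intron tiles shared bases with an exonic tile. The gap was wider between genes with tiles of 1 class only. In the 95 genes with intron tiles alone, 268 tiles had a median size of 1.02 percentage points and 41 of the 47 tiles that passed q and 5 percentage points. In the 154 genes with exonic tiles alone the median size was 0.431.

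Among the genes with both classes, ARSK, which encodes a lysosomal arylsulfatase, had the widest gap, of 2.003 percentage points. Its 5′ UTR tile had 0.259 and its coding tile 0.356 in the authors' deposited table. The next tile, which overlaps both and starts 36 bp into the intron, was -1.70 (q = 7.74e-04). ALDH1A3, which makes retinoic acid, had -1.29 and -1.34 in intron tiles and -0.0136 in a coding tile that overlaps them, in the authors' deposited table. In PTPN21, a tyrosine phosphatase, the values of both classes were closer. Its intron tiles had 2.12 and 1.93 and its coding tiles 1.97 and 2.35 percentage points in the authors' deposited table. In each of these genes tiles of both classes shared bases, so the values do not place a change at an intron edge. BPIFA2A, a secreted protein of the BPI fold family, had -4.45, -3.94, -4.57 and -5.11 in intron tiles and -5.91 in the coding tile that followed, in the authors' deposited table. It was counted as multicopy, and reads could be shared with related copies. ENSBTAG00000053765, without description, had the most negative exonic value of the set, -7.95 percentage points in the authors' deposited table. The intron tiles just before it had -7.81, -7.59 and -8.19 in the authors' deposited table, the last with only 21 bp on the intron, so that the same stretch counted in both classes.

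**Figure D4:**
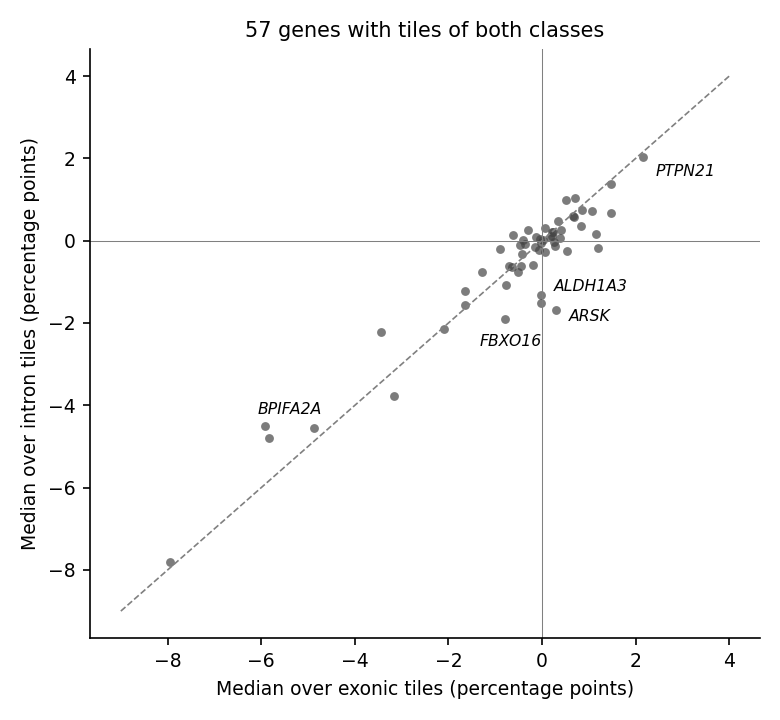
Median deposited difference over intron tiles (vertical axis) against that over exonic tiles (horizontal axis), both in percentage points, for the 57 genes with tiles of both classes; each point is a gene and the dashed line marks equal values. Gaps are under 1 percentage point in 49 genes and widest, at 2.003, in ARSK.

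On CpG islands listed in the table no gene body tile reached 5 percentage points. Of the gene body tiles, 61 intronic and 118 exonic ones overlapped such an island, and 0 of either passed q and 5 percentage points. Away from these islands 47 of 360 intron tiles and 16 of 316 exonic tiles passed. Over all autosomal tiles outside the 5 regions 9.65% passed. Among those classed as within CpG islands, which are not gene body tiles, 22 of 594 did (3.70%). The median size was 0.727 percentage points on islands and 0.971 off them for introns, and 0.591 and 0.475 for exonic tiles, so that exonic tiles on islands were not smaller by median. The table lists an island only where it is the closest feature of some tile, so other islands may lie under these tiles.

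Tiles in genes without description, in genes of multicopy families or in transcripts without a gene had larger values in both classes. The 118 such intron tiles had a median size of 2.19 percentage points and the 127 such exonic tiles, 21 of them without a gene, had 1.02, against 0.727 and 0.415 in the other genes. The exonic tiles that passed q and 5 percentage points were 14 of 127 here and 2 of 307 in the other genes. In introns the shares were alike, 14 of 118 and 33 of 303. Reads from such copies can align to more than 1 place, and the sources used here do not give how the authors treated them.

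Genes were also read by function, from lists of names, against 215 of 306 genes of the set with a tile at q under 0.05 and 18 with a tile that also reached 5 percentage points. These counts use the deposited q alone. SLIT2, CCDC34, EXT1, TET2, RNF167, EXOC8, PCDHGA5 and SLC25A33 are counted although none of their tiles had a p-value under 0.05. The list of synapse and neuronal adhesion genes held 7 genes of the set and leaves out others of the kind. Of those left out, VAMP1, ASTN2 and CALY had no tile at q under 0.05. CNIH3 (lowest q = 6.58e-04) and ICAM5 (q = 0.0306), also left out, had such a tile. Each of the 7 had a tile at q under 0.05, and SORCS3 and CSMD3 also reached 5 percentage points. In the others the values were small. DLGAP1, a scaffold of the postsynaptic density, had coding tiles at -1.89 and -1.82 percentage points in the authors' deposited table, and TENM4, a teneurin, had a coding tile at -0.742. SYT11, a synaptotagmin, had 4 intron tiles between 0.505 and 0.654 percentage points in the authors' deposited table. GABRB1, a GABA receptor subunit, had an intron tile at 0.405 percentage points with q under 0.05 in the authors' deposited table, and SLIT2, an axon guidance ligand, one at 0.323 with q = 0.0121 and p = 0.0695.

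Of 10 genes listed under the cytoskeleton and the sperm tail 6 had a tile at q under 0.05. CCDC166, CCDC196, CCDC107 and CCDC34 are on this list by a coiled-coil name only. Others of the kind are left out, such as SAXO2 and NEFM, which had a tile at q under 0.05, and NEFL, KRT25 and CORO6, which had none. SEPTIN10 and SPATA1 held the large values, and the exonic tiles of the list, in 4 genes, had a median size of 0.683 percentage points. In the list of metabolic enzyme families 6 of 7 genes had such a tile. The only gene of this list past 5 percentage points was CA10, which belongs to it by family and not by enzyme activity. GLYAT, which joins glycine to acyl groups, had 4 intron tiles on chromosome 15 at -4.02, -3.91, -3.91 and -4.25 percentage points in the authors' deposited table. As for GAT on the same chromosome, reads could be shared with related copies. CYP26A1, which breaks down retinoic acid, had coding tiles at -1.60 and -1.67 and an intron tile at -1.58 in the authors' deposited table.

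Transcription factors and chromatin genes had such a tile in 10 of 15 genes, none of which reached 5 percentage points. TET2, which oxidises methylated cytosine, had its 3′ UTR tile at 1.65 percentage points, and coding tiles at 1.30 and 0.607 in the authors' deposited table. NR5A2, a nuclear receptor, had 1.06 in a tile that starts in its 5′ UTR in the authors' deposited table. The tiles that start in the adjoining intron had 0.850 and 0.588. All of these tiles overlap, so the values do not place a change at the boundary. PRDM6, a PR domain factor, had an intron tile at 1.26 percentage points per the authors' deposited table.

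In the ubiquitin, proteolysis and sorting list 10 of 11 genes had a tile at q under 0.05. UBE2D3, a ubiquitin-conjugating enzyme, had intron tiles at -1.54 and -1.64 percentage points in the authors' deposited table, and VPS16, a subunit of endosomal tethering complexes, a 5′ UTR tile at -1.17. RNA binding and translation genes had such a tile in 9 of 10, with a median size of 0.579 percentage points. RBM20, a splicing factor of heart muscle, was the largest at -1.74 and -1.81 percentage points in the authors' deposited table, at the start of an intron of more than 10000 bp. EIF3A, a translation initiation factor subunit, had a 5′ UTR tile at -0.918 percentage points per the authors' deposited table. The other lists were smaller. At q under 0.05 were 5 of 6 genes listed as ion channels and transporters, where ABCF3 belongs by family name only. The same held for 3 of 4 cadherin and matrix genes and 1 of 3 cyclic nucleotide and kinase genes. None of these 13 genes reached 5 percentage points. ADCY9, an adenylate cyclase, was the 1 of 3, with a coding tile at -0.459 percentage points per the authors' deposited table. COL27A1, a fibrillar collagen, had intron tiles at -0.867 and -0.835 percentage points in the authors' deposited table.

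Of the 26 chromosomes with a tile of the set, 22 had at least 5 tiles of each class, and the intron median was the larger in size on 17 of them. The larger intron values were thus not those of 1 chromosome. In the tiles left out, the gap between the classes varied. On chromosome X the 21 intron tiles had a median size of 4.67 percentage points and the 43 exonic tiles 0.419. In the 5 regions left out the 262 intron tiles had 3.71 and the 30 exonic tiles 2.998.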

How the data were processed

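Sperm DNA from 12 samples (6 low BFI, 6 high BFI) was profiled by EM-seq. Tools named in the submitters' processing notes are Trimmomatic, Bismark and methylKit, and the builds are ARS-UCD1.2 and bosTau9, without versions or settings. Per the file headers, each tile in the table the authors deposited has a p-value, a q-value, a methylation difference and the closest annotated feature. The deposited difference is a score without a stated unit or direction, read here as percentage points. No column belongs to a sample, the number of unmatched per-sample columns is 0, and the sources used here do not give the rule by which tiles were listed. A deposited q can be below its p-value, as in 589 of the 855 tiles. How q relates to the p-value differs by chromosome. On chromosome 28 a p-value of 0.399 has q = 0.00197, and on chromosome 22 one of 0.0468 has q = 0.0710.

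The 855 tiles were selected by annotated position and type, and medians, quartiles and counts were computed with Python 3.11.15, pandas 2.3.3 and NumPy 2.4.6, and plotted with matplotlib 3.10.9. The summary code was tested on simulated data. No new test between groups was run, and labels could not be checked against cell markers. Gene numbers were matched to a RefSeq table of assembly ARS-UCD2.0 for names only (54 of 55 matched), and 219 descriptions were given symbols by hand, 218 of which have the same chromosome there. Multicopy genes are those whose description names one of a set of multicopy families or holds "-like" with a hyphen. Descriptions such as "ninein like", without a hyphen, were not counted as multicopy.

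Genes were named by rule: for each class the 8 with the largest negative and the 8 with the largest positive difference at q under 0.05, the 5 with the most tiles, the 8 with the widest gap between classes, and up to 6 of each functional list. PEX5L, SMYD3, CNIH3, SLIT2, VAMP1, ASTN2, CALY, ICAM5, RNF167, EXOC8, CCDC107, CCDC34, SAXO2, NEFL, KRT25 and CORO6 were named after their values were seen. The tile set, the lists and the alternatives were chosen with earlier results of these data known. Alternatives covered the q and size thresholds, overlap with the feature, 1 tile per stretch (largest size), feature (first) or gene (smallest size), the regions left out, and multicopy genes.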

Additional observations from a re-analysis of the deposited data

How the results depend on the processing

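Of 76 values recomputed under an alternative, 50 moved by less than the limits set and 26 by more. The intron median of size was the larger in the 7 alternatives that gave both, but 2 of these choose tiles by the measured size (the largest tile of each stretch, the smallest of each gene) and so bear little on it. The 4 called intron tiles became 47 at 5 percentage points, 0 at 15, 2 with the largest tile of each stretch or the first tile of each feature, 25 with the 5 regions kept, and 0 with the smallest tile of each gene, a count that this choice nearly fixes. The 0 called exonic tiles became 16 at 5 percentage points and 1 with the regions kept. The intron share with q under 0.05 (64.6%) became 51.5% at q under 0.01, 54.8% per feature, 70.7% with the regions kept, 58.9% by p-value, 59.4% without multicopy or undescribed genes and 48.0% for the smallest tile per gene. The exonic share (58.8%) became 38.9% at q under 0.01, 65.6% for the largest tile per stretch, 50.5% by p-value and 47.9% for the smallest tile per gene. The intron median size (0.867) became 0.657 per feature, 1.63 with the regions kept, 0.727 without multicopy or undescribed genes and 0.525 for the smallest tile per gene. The exonic median size (0.488) became 0.415 without multicopy or undescribed genes and 0.353 for the smallest tile per gene. The intron share of negative tiles (56.5%) became 61.4% with at least 250 bp on the intron and 69.8% with the regions kept. The cause was not tested. The alternatives by p-value, without shared bases between classes, without multicopy or undescribed genes, and per gene were chosen after seeing the data.

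No paired analysis was possible because the running numbers of the samples pair none and the table holds no value per sample; leaving out a replicate was not done for the same reason. Depth is unknown, and the sources used here do not say whether the deposited q allows for differences between samples.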

Other observations

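Several genes without a symbol held long stretches of tiles, and their identity is uncertain. ENSBTAG00000051364 on chromosome 2 from 121569901 to 121576100 had 23 intron and 13 coding tiles, up to 2.83 and 3.25 percentage points in the authors' deposited table. Its tiles include the 8 of the set whose q is listed at 0. ENSBTAG00000048451 on chromosome 3 had 11 intron tiles from -5.90 to 1.52 percentage points in the authors' deposited table. ENSBTAG00000023169, described as ninein like, was counted above with the described genes outside multicopy families. On chromosome 13 it had 24 intron tiles from -0.598 to 3.27 percentage points in the authors' deposited table. Its 4 coding tiles had 0.708 to 1.39 percentage points in the authors' deposited table.

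Copies described as ubiquitin carboxyl-terminal hydrolase 17-like protein 6, a deubiquitinase family of many copies, lay on 2 chromosomes with similar values. ENSBTAG00000030838 on chromosome 4 had 11 coding tiles from -3.96 to -2.42 percentage points in the authors' deposited table. ENSBTAG00000030892 on chromosome 3 had 7 coding tiles from -3.999 to -2.23 percentage points in the authors' deposited table. Whether reads were shared between these copies was not tested.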
